A study of Mus musculus with 6 samples.

Results

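The genes described here encode the signalling part of the T cell receptor and the enzymes and adaptors that act next to it. They are the subunit genes Cd3d, Cd3e, Cd3g and Cd247, the adaptor genes Trat1, Lat and Lcp2, and the kinase genes Lck and Zap70, chosen by name. All 9 had a row in the count table of 24047 gene rows, and all 9 passed the filter on low counts. RNA was sequenced from 6 libraries of mouse CD4 T cells of the strain labelled B6.129, from spleens of 7-week-old animals. The genotypes were wild type (WT, 3 libraries) and Srsf1-flox/flox dLck.Cre (labelled Srsf1-cKO, 3 libraries), with 3 mice of each genotype per the design text. Srsf1 encodes a splicing factor, and dLck.Cre is a Cre recombinase driven by the distal promoter of Lck, which is active late in T cell development. Whether the WT animals carried the transgene is not known here. Naive cells of both groups were activated through CD3 (antibody at 0.5 µg/mL) and CD28 (antibody at 1 µg/mL) over 72 h. Then, for 4 h, the phorbol ester PMA, at 100 ng/mL, and the calcium ionophore ionomycin, at 1 µM, were given, which act downstream of the receptor.

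The T cell receptor binds antigen through a variable chain pair that has no signalling tail of its own. The CD3 gamma, delta and epsilon chains (Cd3g, Cd3d and Cd3e) and the zeta chain (Cd247) carry tyrosine motifs that the kinase Lck phosphorylates. ZAP-70 then docks on these motifs and phosphorylates the scaffold LAT and the adaptor SLP-76 (Lcp2), on which enzymes of calcium, Ras and NF-kB signalling assemble. TRIM, the product of Trat1, is a small membrane adaptor that associates with the zeta chain. SRSF1 is known to act on the splicing of CD247 RNA in human T cells, and loss of zeta chain is a known feature of T cells in lupus.

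Each library held between 7781283 and 10184268 gene counts. Srsf1 itself stood at 540.5, 458 and 485.5 CPM (counts scaled to a common library size by TMM) in WT and at 523, 548 and 471 in the libraries labelled Srsf1-cKO (log2 fold change 0.06, SE 0.12, edgeR adjusted p = 0.78). The groups overlap, so the level of the targeted gene does not separate the labels, and groups are called by their labels throughout. Cd4 was measured at 465 ± 53.5 CPM in WT and 389 ± 56.9 in Srsf1-cKO (SD, n = 3 each), while Cd8a stood at 0.416 ± 0.096 and 0.517 ± 0.612 CPM. Markers of other cells were not low in every list, nor equal between the groups. The 7 B cell markers summed to 1.19 to 7.28 CPM in WT and 8.92 to 23.5 in Srsf1-cKO (1 of 4 tested rose, Cd79a), and the 8 myeloid markers with a row to 5.54 to 8.06 and 14.9 to 27.9 CPM (1 of 4 tested rose, Lyz2). The dendritic cell list summed to 4.16 to 21.6 and 7.25 to 10.3 CPM, mostly Zbtb46, with Siglech and Clec9a at 0 in every library. The NK list summed to 54.1 to 86.8 and 21.0 to 45.5 CPM, mostly Eomes, which fell, with Klrd1 higher and Ncr1 and Klra8 at 0. Cd8b1 brought the CD8 list to 24.6 to 42.5 and 16.7 to 22.8 CPM, and the gamma delta and erythroid lists reached at most 0.563 and 0.188 CPM. Only 3 of the 7 gamma delta markers had a row, and Tcrg-C1, Tcrg-C2, Trdc and Tcrd-V1 had none. That sum therefore cannot show whether gamma delta T cells were present. Hba-a1 of the erythroid list had 0 counts, yet its FPKM was 0 in WT and 0.650 ± 0.278 in Srsf1-cKO (SD, n = 3 each). Of 9 tested CD4 T cell markers, Cd40lg rose and Zbtb7b fell. Marker genes named for having passed the test were chosen after their values were seen.

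The promoters of the 4 genes that the results below turn on are shown from RefSeq (build GRCm38.p6), in windows around the annotated start. All 9 genes matched that table, with 12 windows. Cd3g and Cd3d lie next to each other on chromosome 9 and are read in opposite directions, and Cd3e is the next RefSeq gene. Capitals mark CAGGAA or its reverse complement TTCCTG, letters found in sites of ETS family factors, of which Elf1 is one.
Cd3g (chr9:44980382-44980681, minus strand): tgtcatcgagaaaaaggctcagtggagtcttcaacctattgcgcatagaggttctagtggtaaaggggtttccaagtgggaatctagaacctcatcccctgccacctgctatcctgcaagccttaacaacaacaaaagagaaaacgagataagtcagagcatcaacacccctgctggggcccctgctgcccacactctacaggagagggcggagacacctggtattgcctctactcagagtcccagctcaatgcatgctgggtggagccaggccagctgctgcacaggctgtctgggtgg
Cd3d (chr9:44981536-44981835, plus strand): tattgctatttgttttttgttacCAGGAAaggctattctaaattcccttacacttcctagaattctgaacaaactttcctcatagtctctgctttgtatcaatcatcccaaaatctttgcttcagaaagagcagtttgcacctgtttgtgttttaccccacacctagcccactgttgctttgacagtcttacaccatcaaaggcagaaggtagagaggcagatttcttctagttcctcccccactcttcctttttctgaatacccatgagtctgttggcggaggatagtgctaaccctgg
Cd247 (chr1:165788431-165788730, plus strand): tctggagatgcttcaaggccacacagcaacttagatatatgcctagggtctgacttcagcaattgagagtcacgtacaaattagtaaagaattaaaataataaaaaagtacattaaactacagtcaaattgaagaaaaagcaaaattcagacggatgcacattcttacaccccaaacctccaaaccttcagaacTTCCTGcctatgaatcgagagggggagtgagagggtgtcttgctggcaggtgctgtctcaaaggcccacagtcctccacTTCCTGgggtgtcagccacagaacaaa
Trat1 (chr16:48772013-48772312, minus strand): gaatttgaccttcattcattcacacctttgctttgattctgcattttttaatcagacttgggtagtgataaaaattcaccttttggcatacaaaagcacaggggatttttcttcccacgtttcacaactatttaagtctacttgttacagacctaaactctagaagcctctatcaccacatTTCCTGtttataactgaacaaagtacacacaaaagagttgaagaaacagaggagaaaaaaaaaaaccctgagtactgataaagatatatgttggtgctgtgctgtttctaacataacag
CAGGAA on either strand was found in 10 of the 12 windows, against 30.6% of all 32851 RefSeq windows of this length. The windows without it were that of Cd3g and 1 of the 3 windows of Zap70. It overlaps AGGAAG, which was found in 9 of the 12 windows, against 35.4% of all windows. These belong to 7 genes, with neither Cd3g nor Trat1 among them. TGACG, a part of the site of CREB family factors, was found in 2 of the 12 windows, for Cd3e and Zap70, against 20.8% of all windows. CAGGAA was chosen after the sequences were seen, and a match describes letters only.

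Trat1 and Cd3g rose in the libraries labelled Srsf1-cKO, and the other 7 genes of the complex did not pass the test. The count of 2 of 9 genes called stands beside 18.4% of all 10454 genes tested (8.9% higher and 9.5% lower), a share near that background. None was called lower by edgeR or DESeq2, and 0 had an unadjusted edgeR p under 0.05 in that direction. The median log2 fold change over the 9 genes was 0.13, against 0.0051 over all genes tested. In bulk RNA, fewer cells of a type and less RNA per cell cannot be told apart, and every change below is one of RNA level relative to the library.

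**Figure D1:**
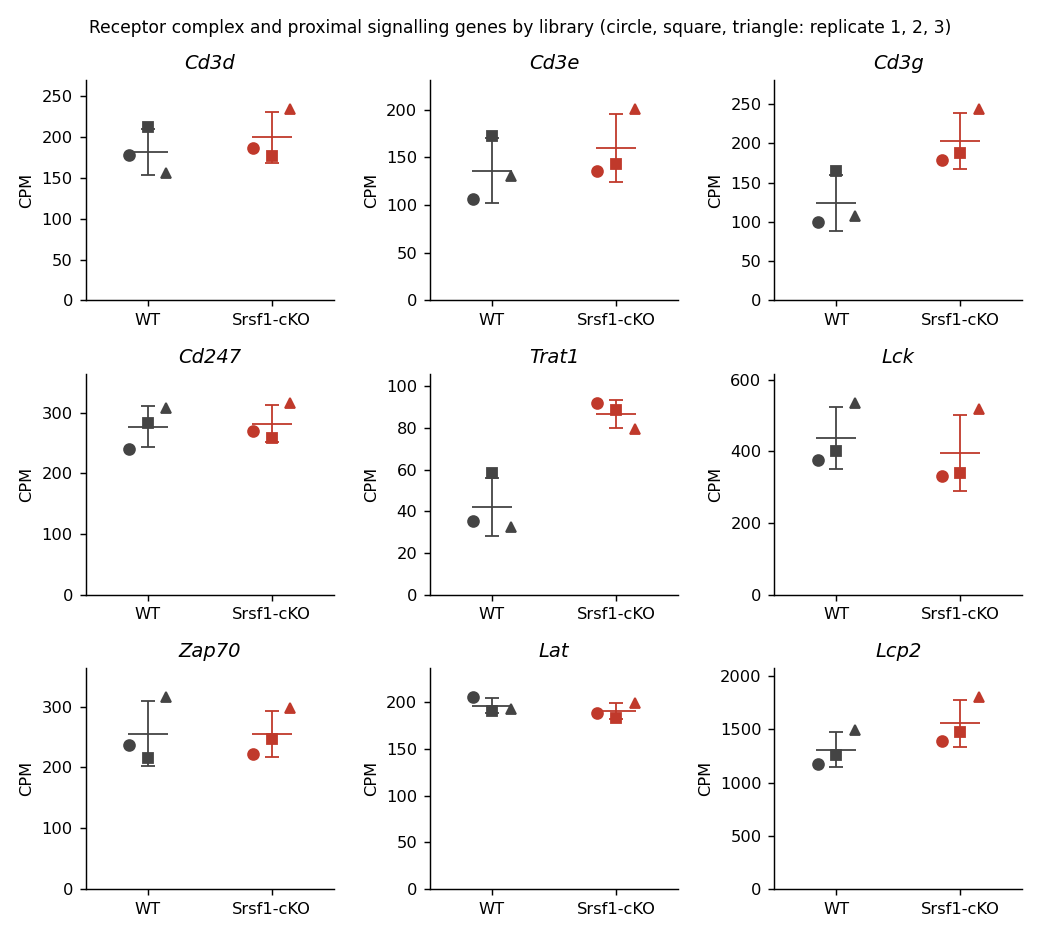
Each panel plots the CPM of 1 gene on an axis from 0, with 1 point per library (WT grey, Srsf1-cKO red, shape by replicate number) and a bar for mean ± SD. Only in the Cd3g and Trat1 panels do all red points lie above all grey ones.

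Trat1 was measured at 35.5, 58.1 and 32.6 CPM in WT and at 92.1, 88.6 and 79.3 in Srsf1-cKO. The lowest Srsf1-cKO library thus lay above the highest WT library, replicate 2. The raw counts behind these values were 321, 447 and 247 against 852, 794 and 845. Trat1 rose 2.06-fold (95% confidence interval 1.46 to 2.90, log2 fold change 1.04, SE 0.22, edgeR adjusted p = 0.0158). The call was lost without WT replicate 1 (adjusted p = 0.0897) or Srsf1-cKO replicate 2 (0.0689), although the log2 fold change stayed at 0.91 and 1.03, and all-gene calls fell to 195 and 234 in the same settings. Values of the B cell and myeloid lists given above were higher in the same libraries, at most 27.9 CPM in sum, and their part in the change of Trat1 was not tested.

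Cd3g, the gamma chain gene, stood at 100.3, 165 and 107 CPM in WT and at 179, 188 and 245 in Srsf1-cKO. WT replicate 2 was the highest of its group and lay closest to the other group, and the groups did not overlap. Cd3g rose 1.64-fold (95% confidence interval 1.18 to 2.28, log2 fold change 0.72, SE 0.21, edgeR adjusted p = 0.0452). This call lay close to the threshold. It held when WT replicate 2 was left out (log2 fold change 0.97, adjusted p = 0.0145) and was lost when any other library was left out, with log2 fold changes between 0.56 and 0.80 and adjusted p up to 0.184. Across all tested genes, 39.4% had groups that did not overlap in CPM (19.9% higher and 19.5% lower in Srsf1-cKO), and among the 9 genes here 2 did not, both higher.

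Cd3d, the delta chain gene next to Cd3g, was measured at 177, 212 and 156 CPM in WT and at 186, 177 and 234 in Srsf1-cKO. Its groups overlap, with a log2 fold change of 0.13 (95% confidence interval -0.23 to 0.50, edgeR adjusted p = 0.59). Cd3e, whose chain pairs with both gamma and delta, stood at 106, 173 and 129.995 CPM in WT and 136, 143 and 201 in Srsf1-cKO (log2 fold change 0.23, 95% confidence interval -0.25 to 0.71, edgeR adjusted p = 0.463). In all 3 CD3 genes, WT replicate 2 was the highest WT library and Srsf1-cKO replicate 3 the highest of the other group.

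Cd247, the zeta chain gene, showed no difference that the test could detect. It was measured at 240.2, 284 and 308 CPM in WT and 271, 258 and 317 in Srsf1-cKO, from 2173 to 3374 counts per library. The ranges of the groups overlap almost fully. The log2 fold change was 0.02 (SE 0.14, edgeR adjusted p = 0.923), and its 95% confidence interval runs from 0.81-fold to 1.27-fold, so a loss of a larger size in total Cd247 RNA lies outside it. Its sign turned when WT replicate 1 (-0.086) or Srsf1-cKO replicate 3 (-0.068) was left out. Of 4 genes listed as reported regulators of Cd247, 0 were called by edgeR and 1 had an unadjusted edgeR p under 0.05, and DESeq2 called that 1 gene lower. It was Elf1, an ETS factor, at 226, 239.9 and 297 CPM in WT and 201, 181 and 179 in Srsf1-cKO (log2 fold change -0.44, SE 0.14, edgeR adjusted p = 0.0554). Crem and Creb1, factors of the CREB family, had log2 fold changes of 0.20 and -0.06 (edgeR adjusted p = 0.452 and 0.882).

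The kinase genes did not pass the test either. Lck, which phosphorylates the receptor tails, stood at 376, 400.4 and 536 CPM in WT and 329.8, 339 and 518 in Srsf1-cKO. Replicate 3 was the highest of both groups, and its distance to the other libraries exceeded the distance between the group means. The log2 fold change was -0.15 (95% confidence interval -0.62 to 0.33, edgeR adjusted p = 0.65). Zap70 was measured at 236, 215 and 316 CPM in WT and 222, 247 and 297 in Srsf1-cKO, with replicate 3 again the highest in both groups. Its log2 fold change was -0.0018 (95% confidence interval -0.40 to 0.40, edgeR adjusted p = 0.996). The 2 kinase genes varied together over the 6 libraries (r = 0.85, a description over libraries of both groups).

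Lat was the steadiest of the 9 genes. It stood at 206, 190.4 and 193 CPM in WT and 188, 183 and 199.8 in Srsf1-cKO, which gave the narrowest interval of the set (log2 fold change -0.04, 95% confidence interval -0.30 to 0.21, edgeR adjusted p = 0.809). Lcp2, the gene of SLP-76, was the most abundant, at 1176, 1258 and 1493 CPM in WT and 1393, 1472 and 1804 in Srsf1-cKO. WT replicate 3 lay above 2 of the 3 Srsf1-cKO libraries. The log2 fold change of Lcp2 was 0.25 (95% confidence interval -0.09 to 0.59, edgeR adjusted p = 0.262).

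**Figure D2:**
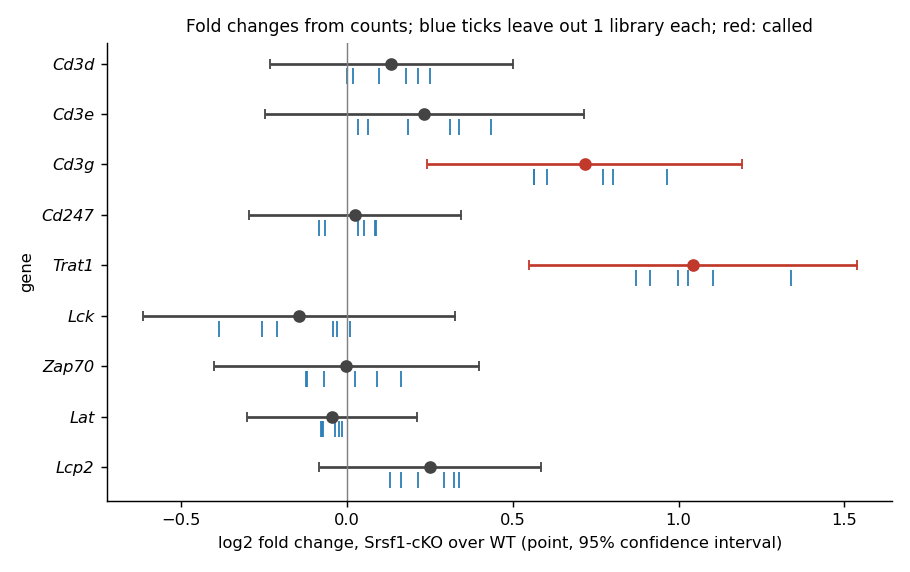
Points give the log2 fold change of each gene (Srsf1-cKO over WT) with its 95% confidence interval, red where called, and blue ticks the values with 1 library left out. The intervals of Trat1 (0.55 to 1.54) and Cd3g (0.24 to 1.19) lie above 0 and the other 7 include 0.

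FPKM values are scaled by transcript length, so a comparison of different genes rests on the length used for each. In WT the order of mean FPKM was Lcp2 (276 ± 38.7), Lck (163 ± 33.2), Cd247 (128 ± 18.7), Lat (125 ± 1.42), Cd3d (107 ± 19.9), Zap70 (106 ± 21.5), Cd3g (101 ± 31.0), Cd3e (75.1 ± 21.2) and Trat1 (50.9 ± 18.1) (SD, n = 3). Only Lcp2 was set apart from its neighbour, and all other neighbours in that order had overlapping ranges. In Srsf1-cKO Lcp2 (352 ± 49.96) was again first without overlap, and Cd3g (177 ± 32.2) followed it in place of Lck (158 ± 41.5). Trat1 (114 ± 8.89) stood above Cd3e (93.4 ± 21.2) there, with overlapping ranges. The ratio of counts to FPKM of Trat1 was 0.787 kb in Srsf1-cKO, while GENCODE M21 lists a transcript of 4.67 kb. The place of Trat1 in the order therefore depends on the annotation used. On the log2(FPKM + 1) scale, limma called the same 2 genes, with log2 fold changes of 1.20 for Trat1 (SE 0.22, adjusted p = 0.0139) and 0.83 for Cd3g (SE 0.22, adjusted p = 0.0375), where 18.7% of 9617 genes were called. That scale moved the median of all genes to 0.10, to which its values are relative.

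Within each library, the 4 signalling subunit genes were set against each other, which removes any scaling between libraries. Cd3g made up 22.9%, 27.2% and 22.4% of their summed FPKM in WT and 31.9%, 33.2% and 33.6% in Srsf1-cKO. The groups did not overlap, and the mean share was 8.73 percentage points higher in Srsf1-cKO (exact two-sided permutation p = 0.1, the smallest that 3 against 3 libraries allow, 0.267 adjusted over the 4 genes). Cd247 held 31.2%, 27.1% and 36.1% in WT and 27.5%, 26.3% and 24.6% in Srsf1-cKO. Its groups overlap, with a mean difference of -5.35 percentage points (exact permutation p = 0.2, 0.267 adjusted). That difference was -3.05 without WT replicate 3 and -7.51 without WT replicate 2. The 4 shares are parts of 1 whole, so a higher share of Cd3g lowers the others. Mean FPKM of Cd247 itself was 128 ± 18.7 in WT and 139 ± 14.6 in Srsf1-cKO. Cd3d held 26.3 ± 3.09% and 23.7 ± 0.659% (exact permutation p = 0.2, 0.267 adjusted), and Cd3e 18.1 ± 1.61% and 17.3 ± 1.18% (exact permutation p = 0.6, 0.6 adjusted; SD, n = 3 each). The summed FPKM of the 4 genes was 342, 499 and 392.1 in WT and 478, 495 and 635 in Srsf1-cKO, with overlap.

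**Figure D3:**
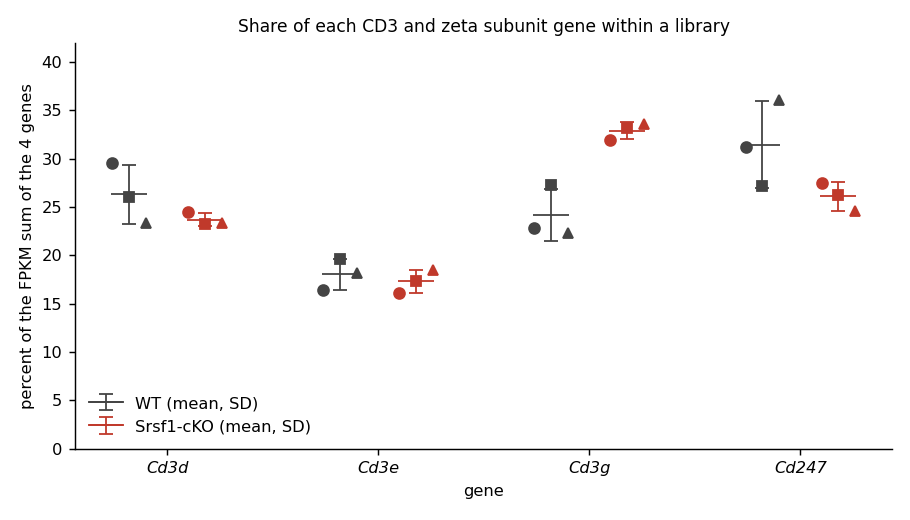
Points give the percent of the summed FPKM of Cd3d, Cd3e, Cd3g and Cd247 that each gene held in each library, with mean ± SD per group. All 3 Srsf1-cKO points of Cd3g (31.9% to 33.6%) lie above its WT points (22.4% to 27.2%), while the other genes overlap.

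Because Cd247 is a reported splicing target of SRSF1, counts were also set against FPKM gene by gene. Their ratio, in kb, stands in for the transcript length by which each gene was scaled in each library, and it moves when reads are assigned to transcripts of another length. For Cd247 it was 2.10, 2.08 and 2.11 kb in WT and 2.10, 2.10 and 2.09 kb in Srsf1-cKO. The log2 change was 0.00033 (95% confidence interval -0.019 to 0.020, limma adjusted p = 1.00), although GENCODE M21 lists 6 protein-coding Cd247 transcripts between 1.32 and 2.96 kb. None of the 9 genes was called (0 at an unadjusted limma p under 0.05), and 7 of 7731 genes were called in all (0.0905%). The widest interval was that of Trat1 (log2 change -0.02, 95% confidence interval -0.09 to 0.04), at 0.800 ± 0.030 kb in WT and 0.787 ± 0.0027 kb in Srsf1-cKO. The ratio is not the length of a listed transcript. GENCODE M21 gives 4.67 kb for the Trat1 transcript, and for the other genes except Cd247 the ratio lay above the longest listed protein-coding transcript, as for Lck (2.59 against 2.19 kb) and Lcp2 (4.58 against 3.64 kb). The counts in the ratio were scaled by each library's total gene counts, which lay below its uniquely mapped reads (9650828 against 11186992 in WT 1). If FPKM was scaled by another total, the ratio holds a factor common to all genes. An excess over a listed length therefore cannot be read as annotation alone, and its source was not tested. Levels per length may depend on the annotation and on that total. A shift between transcripts of like length, or to ones that the authors' annotation lacks, would not move this ratio.

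**Figure D4:**
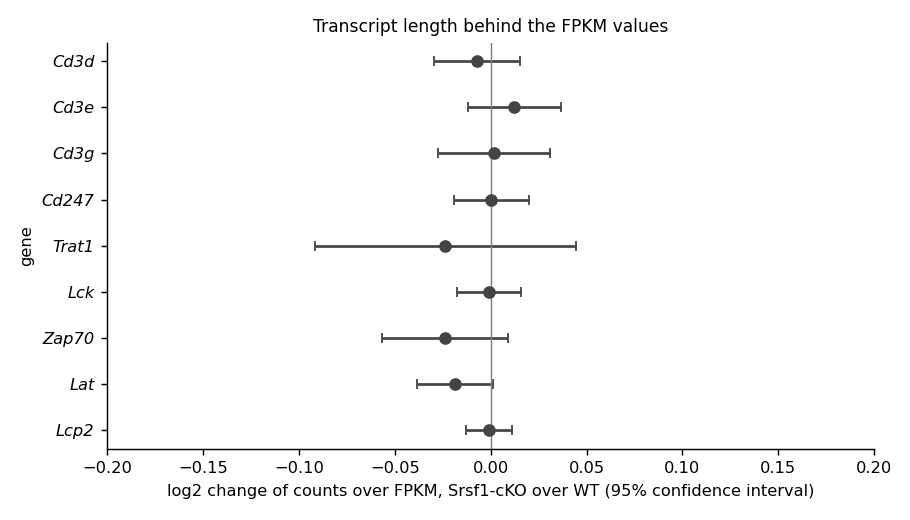
Points give the log2 change of the ratio of counts to FPKM (Srsf1-cKO over WT) with its 95% confidence interval for each of the 9 genes. All 9 intervals include 0, and that of Cd247 runs from -0.019 to 0.020.

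Around the receptor complex, more genes of the 5 pathway lists (coreceptors and costimulators, other kinases, other adaptors, effectors, brakes) were called lower than higher. Of 58 genes in 5 lists, 56 were tested, with 2 higher and 10 lower, beside 8.9% higher and 9.5% lower among all genes tested. Their median log2 fold change was -0.21 (0.0051 over all genes tested). Of 13 effector genes, which act downstream of LAT and SLP-76, 5 fell and 0 rose, with a median of -0.46. At an unadjusted edgeR p under 0.05, 0 were higher and 8 lower, and DESeq2 called 7 lower and 0 higher. Rhoh, an adaptor-like GTPase that helps bring ZAP-70 to LAT, fell from 76.1 ± 17.1 to 26.6 ± 0.991 CPM (log2 fold change -1.52, SE 0.18, edgeR adjusted p = 0.00435). The fall of Rhoh kept an edgeR adjusted p under 0.05 without each library in turn. Prkcq, the gene of protein kinase C theta, fell with a log2 fold change of -0.53, and Malt1, a protease of NF-kB signalling and the highest of the list in FPKM, with -0.43 (edgeR adjusted p = 0.0427 and 0.0485). Plcg1, the phospholipase docked on LAT, also fell and was chosen after its value was seen (log2 fold change -0.51, edgeR adjusted p = 0.0497). Plcg1 lost its call without each library in turn. Prkcq and Malt1 lost theirs without any 1 library except WT replicate 3. In these fits the edgeR adjusted p ran up to 0.194. The calls of Prkcq, Malt1 and Plcg1 were also lost under upper-quartile scaling (edgeR adjusted p = 0.0527 to 0.0579) and library-size scaling (0.089 to 0.106). They were lost on the FPKM scales too (limma adjusted p = 0.106 to 0.174). Malt1 was not called without the filter on low counts (edgeR adjusted p = 0.0512). Plcg1 was not called at a mean CPM of at least 5 (edgeR adjusted p = 0.0517) or by limma-voom (adjusted p = 0.0522).

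Among 17 tested adaptor genes beside Lat, Lcp2 and Trat1, 2 fell and 0 rose, with a median of -0.16. The 2 of 17 called lower lie near the 9.5% of all genes tested. At an unadjusted edgeR p under 0.05, 0 were higher and 5 lower, and DESeq2 called 0 higher and 2 lower. Sit1, a membrane adaptor of the same small family as TRIM, fell from 11.6 ± 0.913 to 4.91 ± 1.29 CPM (log2 fold change -1.23, SE 0.24, edgeR adjusted p = 0.0135). Grap, an adaptor related to Grb2 and the highest of the list in FPKM, fell from 363 ± 67.3 to 234 ± 23.1 CPM (edgeR adjusted p = 0.0271). Both calls were lost without WT replicate 1 or Srsf1-cKO replicate 2, and that of Grap also without Srsf1-cKO replicate 1 (edgeR adjusted p up to 0.0719 for Sit1 and 0.121 for Grap). Gab2 and Grap2, the gene of the Gads adaptor that joins SLP-76 to LAT, had log2 fold changes of -0.62 and -0.40 (edgeR adjusted p = 0.087 and 0.0907).

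Among 6 kinase genes beside Lck and Zap70, 1 rose and 1 fell, with a median of 0.053. Syk, which is closely related to Zap70 and can take its place, rose from 8, 8 and 3 counts in WT to 36, 24 and 30 in Srsf1-cKO. That is 0.774 ± 0.336 and 3.13 ± 0.663 CPM (log2 fold change 1.99, SE 0.42, edgeR adjusted p = 0.0158). Fcer1g, whose chain can stand in for zeta, was too low to be tested, with 1 count in each WT library and 4, 5 and 24 in Srsf1-cKO. B cells and myeloid cells express Syk, and their marker lists moved in the same direction, from sums of 1.19 to 7.28 and 5.54 to 8.06 CPM in WT to 8.92 to 23.5 and 14.9 to 27.9 CPM. Their part in the values of Syk and Fcer1g was not tested. Txk, a Tec family kinase, fell from 24.7 ± 7.27 to 12.1 ± 4.01 CPM (edgeR adjusted p = 0.0409). The call of Txk was lost under library-size scaling (edgeR adjusted p = 0.0587), on the FPKM scales (limma adjusted p = 0.0628 to 0.127) and without replicate 1 or 2 of either group (edgeR adjusted p = 0.093 to 0.143). That of Syk was lost when replicate 1 of either group or replicate 2 of Srsf1-cKO was left out (edgeR adjusted p = 0.0538 to 0.0728). Tec, of the same family, had a log2 fold change of 0.46 (edgeR adjusted p = 0.161).

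Of 12 genes listed as brakes on receptor signalling, a grouping that was not tested here, 2 fell and 1 rose. That lies near the 18.4% called among all genes tested, and the median was 0.041. Dgka, which removes diacylglycerol, fell from 301 ± 85.4 to 140.4 ± 24.2 CPM, and Ptpn6, the phosphatase SHP-1, from 196 ± 24.2 to 104 ± 26.1 CPM (edgeR adjusted p = 0.0131 and 0.0147). Cblb, a ubiquitin ligase, rose from 260 ± 40.3 to 377 ± 6.46 CPM (edgeR adjusted p = 0.0315). The call of Cblb was lost without WT replicate 1 or any 1 Srsf1-cKO library (edgeR adjusted p = 0.057 to 0.124), and those of Dgka and Ptpn6 without WT replicate 1 or Srsf1-cKO replicate 2 (up to 0.0689 and 0.0755). Dok2 had a log2 fold change of 0.76 (edgeR adjusted p = 0.0642), and Ptprc, which encodes CD45 and has the highest FPKM of the list, one of 0.32 (edgeR adjusted p = 0.124). DESeq2 called 2 brakes higher and 2 lower, with Dok2 among the higher (adjusted p = 0.0339). Dok2 was also called under library-size scaling (edgeR adjusted p = 0.047) and on log2(FPKM + 1) (limma adjusted p = 0.0418). It was not called under RLE or upper-quartile scaling (edgeR adjusted p = 0.0663 and 0.0566) or by limma-voom (adjusted p = 0.056). Of 8 tested coreceptor and costimulator genes 0 were called by edgeR or DESeq2, and 0 were higher and 2 lower at an unadjusted edgeR p under 0.05. These were Cd28 (log2 fold change -0.41, edgeR adjusted p = 0.0841) and Cd8b1 (-0.60, 0.115), beside Cd2, the highest of the list in FPKM, at 0.49 (0.159) and Cd4 at -0.25 (0.251).

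**Figure D5:**
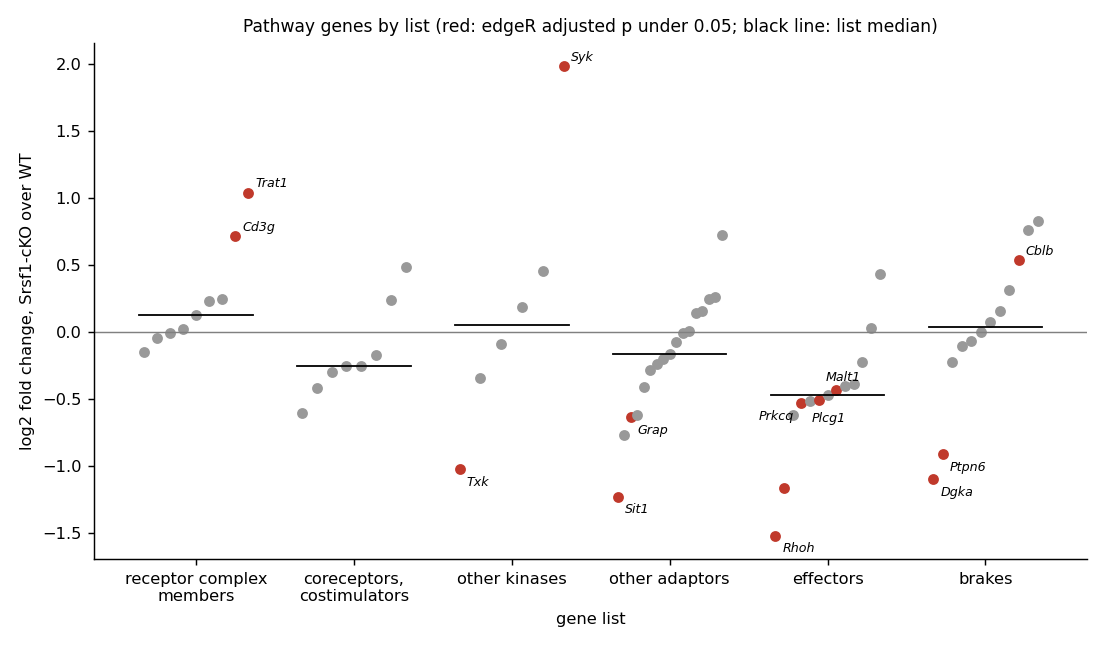
Each point is the log2 fold change (Srsf1-cKO over WT) of 1 tested gene, by list, with called genes in red (those named in the text are labelled) and the list median as a black line. The effector list lies lowest, with a median of -0.46, and the receptor complex genes lie at 0.13.

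The genes varied among themselves in different ways over the 6 libraries. Cd3g and Trat1 followed each other most closely (r = 0.90), and Trat1 and Lat moved most in opposite directions (r = -0.57), as descriptions over libraries that share the genotype difference. Among 8092 genes whose log2 CPM averaged 3 or more, those most like Cd247 over the 6 libraries were Pcyt1a (r = 0.99), Gpr108 (r = 0.97) and H2-Ke6 (r = 0.97). With so many genes and 6 libraries, some genes reach such values whatever the gene chosen, and no test was made.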

How the data were processed

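Gene counts and FPKM values of 6 libraries were used as deposited. The authors aligned reads with STAR 2.4.2a, per the file headers, and the submitters' processing notes name mm9 and Cufflinks. The deposited whole-number counts carry no normalization. FPKM was recognised from the values of a deposited table named as counts. Reads were 75 bp and single-end, per the labels' design text. The counting program, the annotation and its strand setting are not given in sources used here. The deposited alignment report was read for unique reads and total splices, and all per-sample columns were used. Splices per uniquely mapped read were 0.296, 0.305 and 0.279 in WT and 0.271, 0.269 and 0.271 in Srsf1-cKO. This difference was not tested.

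The main test was edgeR 4.0.16 (R 4.3.3) on the counts, by quasi-likelihood, two-sided, after filterByExpr and TMM. The model held genotype alone, p-values were adjusted by Benjamini-Hochberg over 10454 genes, and genes under 0.05 were called. FPKM was tested with limma 3.58.1 on log2(FPKM + 1) for genes at 1 or more in 3 libraries, and folds on that scale understate changes of low genes. The ratio of CPM to FPKM was tested with limma for genes with at least 50 counts and an FPKM of 1 in every library, after centring each library on its median. Subunit shares used exact permutation tests. The edgeR fit and both limma fits were run on simulated data with planted changes, which were large beside the ratio changes reported here. Limits on the outcome were set for the edgeR fit and the ratio fit only. Alternatives were other scalings and filters, DESeq2 1.42.0, limma-voom, a replicate block, each library left out, and the FPKM table. Replicates differed beyond sampling noise in all pairs (chi-square of 6.25 to 37.5 per degree of freedom).

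The genes and lists were chosen with earlier results of these data known. Named are the 9 genes, Srsf1, from each pathway list up to 4 genes with the smallest adjusted p and the most abundant by FPKM, Fcer1g, Syk, the reported regulators of Cd247, the 3 genes most like Cd247 and the highest marker of each cell type. Values of some genes under this rule are not reported here, and they stay in the counts and medians. SD, SE and n refer to libraries, which were labelled as replicates.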

Additional observations from a re-analysis of the deposited data

How the results depend on the processing

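Trat1 had adjusted p under 0.05 in 15 of 17 alternatives (log2 fold change 0.87 to 1.34) and Cd3g in 11 of 17 (0.56 to 0.97). The other 7 genes of the complex were called in none. With libraries left out in turn, the number of complex genes called higher ran from 0 to 2, that of all genes called from 195 (without WT replicate 1) to 1989, that of pathway genes higher from 0 to 4 and lower from 2 to 12. All genes called numbered 1121 and 234 when replicate 1 or replicate 2 of Srsf1-cKO was left out. The FPKM table without a filter gave 1 complex gene and 1146 genes in all, where more genes were tested. Pathway genes higher numbered 1 at a mean CPM of at least 5, where Syk was not tested, and those lower 6 under library-size scaling. That scaling called 1268 genes higher and 709 lower (930 and 993 with TMM) and moved the median of all genes to 0.11, and log2(FPKM + 1) called 1186 higher and 615 lower. The cause of the lost calls was not tested.

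A replicate block gave 5 pathway genes higher instead of 2 and 2270 genes in all, with Cd3g and Trat1 called (adjusted p = 0.0277 and 0.00676) and 0 complex genes lower. The replicate numbers pair the libraries only by number: deviations of same-numbered libraries correlated at 0.24, 0.011 and 0.28, so the block is given here only.

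Signs turned for values near 0, none of them called. Zap70 (-0.0018) was at 0.017 under upper-quartile scaling, 0.10 under library-size scaling, 0.0027 at a mean CPM of at least 5, 0.0086 by limma-voom, 0.0068 with the replicate block, 0.13 with each FPKM setting, and between -0.12 and 0.16 with libraries left out. Lat (-0.04) was at 0.059 under library-size scaling and 0.077 with each FPKM setting. Creb1 was at 0.037 under library-size scaling and, left-out libraries considered, between -0.25 and 0.20. With libraries left out, the ranges were -0.000595 to 0.25 for Cd3d, -0.086 to 0.088 for Cd247, -0.39 to 0.0089 for Lck, -0.0047 to 0.12 for Srsf1, -0.0061 to 0.30 for Crem, -0.12 to 0.29 for Pcyt1a, -0.054 to 0.15 for Gpr108 and -0.026 to 0.31 for H2-Ke6. The Cd3e share difference (-0.75 percentage points) ran from -1.58 to 0.021 and was 0.064 as a share of counts. The ratio of counts to FPKM of Cd247 ran from -0.0038 to 0.0035, with 0 complex genes called in any setting. The Cd3g share difference ran from 7.82 to 10.3 percentage points with libraries left out and was 7.03 as a share of counts. That of Cd247 (-5.35) ran from -7.51 to -3.05 and that of Cd3d (-2.63) from -4.09 to -1.01. The 9 genes had at least 247 counts in every library, and the effect of depth on their tests was not tested.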
